A study of Mus musculus with 6 samples.

Results

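5 windows of the mouse genome rich in KRAB zinc finger genes were examined for H3K9me3, a histone mark of constitutive heterochromatin, in regenerated olfactory epithelium. In mm9, the build of the deposited files, they span chromosome 2 at 174.3 to 178.0 Mb, chromosome 4 at 144.8 to 147.8 Mb, chromosome 7 at 4.0 to 13.5 Mb, chromosome 13 at 65.0 to 68.6 Mb and chromosome 17 at 20.5 to 23.9 Mb, 23.2 Mb in all. An island, a stretch of enrichment called by the program SICER, was taken as a member when its midpoint fell in a window, which gave 400 of the 12565 islands of 4 libraries. Overlapping or touching islands of the 4 libraries were joined into merged regions, of which 146 of 5840 lay in the windows. The windows follow from the positions of genes and not from island values.

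The libraries came from Tomato-positive cells sorted from single mice, 2 Lmnb1+/- controls and 2 Lmnb1-/- mutants, on a mixed background and 2 to 6 months old. Lmnb1 encodes lamin B1, a protein of the nuclear lamina. Mutants were K5Cre;Lmnb1 fl/fl and controls K5Cre;Lmnb1 fl/+, all carrying a Cre-dependent Tomato reporter, so the controls had also lost 1 copy of the gene. K5Cre acts in horizontal basal cells, the reserve stem cells of this epithelium, and recombination was mosaic. All mice received 2 injections of 50 mg per kg methimazole, which strips the epithelium, and recovered for 4 weeks after the second. About 500000 sorted cells per mouse were then split between FARP-ChIP-seq for H3K9me3 and for H3K4me3. FARP-ChIP-seq is a ChIP method for low cell numbers. The sorted cells include neurons, progenitors, stem cells and supporting cells, and a change in their mixture cannot be told apart from a change within a cell type. Control 1 and mutant 1 were littermates of methimazole treatment group 3, and control 2 and mutant 2 littermates of group 4. The H3K4me3 libraries used here are from the first pair only. Islands are not paired with genes in the files, so neither the deletion of Lmnb1 nor the cell types were checked in these libraries.

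KRAB zinc finger proteins are DNA-binding repressors of vertebrates. Their arrays of zinc fingers recognise DNA, in many cases within transposable elements, and the KRAB domain recruits TRIM28, which brings the methyltransferase SETDB1 to deposit H3K9me3. The genes arose by tandem duplication and lie in clusters of similar copies, and the clusters themselves are known to carry H3K9me3, mainly over the final exons that encode the fingers, while their promoters can stay active.

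How similar the copies are matters here because only reads with a single match in the genome were kept by the authors. Promoter sequences of RefSeq (GRCm38.p6) were used to show this, from 250 bases before to 50 bases after each gene's start. They were matched by gene name and neighbour order alone and were not placed on mm9, so a run of genes stands for its window only by chromosome and neighbours. Among 31 promoters in the run between Edn3 and Phactr3 on distal chromosome 2, 74.9% of stretches of 50 bases, the length of a read, occurred at another promoter as well. In 25 of the 31, more stretches were repeated than not. The share was 24.2% for 14 promoters between Tnfrsf8 and Miip on distal chromosome 4. On chromosome 13 it was 24.9% for 12 promoters between Nlrp4f and Uqcrb and 0.598% for 24 promoters between Ptdss1 and Mtrr. It was 16.5% for 20 zinc finger promoters between Vmn1r237 and Zscan10 on chromosome 17. On proximal chromosome 7 it was 11.2% for 22 zinc finger promoters between Epn1 and Slc27a5. In the runs on chromosomes 17 and 7 only genes named Zfp or Zscan were counted. The 5 promoters with a repeated stretch on chromosome 7 were those of Zscan4b, Zscan4c, Zscan4d, Zscan4f and Zfp772. Over all 27025 promoters the share was 4.18%. Sequence shared with another promoter, in the run or elsewhere, was thus most frequent in the run on chromosome 2 and least in the second run on chromosome 13. These shares count exact matches between promoters only. The authors' mapping allowed up to 2 mismatches and looked over the whole genome. The shares therefore do not give the part of reads left out, and they do not cover the rest of the genes.

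The range is shown by 3 cases, each as the 250 bases before a gene's start, 5′ to 3′. In GRCm38.p6 the predicted gene Gm14434 on chromosome 2 (minus strand) shares its 250 bases with Gm14308, Gm2026 and Gm4724. In that build no read within them has a single match, and mm9 was not looked at:
Gm14434: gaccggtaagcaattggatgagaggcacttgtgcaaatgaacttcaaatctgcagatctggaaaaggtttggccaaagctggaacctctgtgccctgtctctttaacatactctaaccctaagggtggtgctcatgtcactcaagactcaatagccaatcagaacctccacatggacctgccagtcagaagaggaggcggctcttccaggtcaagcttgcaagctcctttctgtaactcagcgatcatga
Zfp600 and Rex2 are zinc finger genes of the run on chromosome 4 (both plus strand). Compared position by position without gaps, they differ at 4 of 250 positions, printed in capitals:
Zfp600: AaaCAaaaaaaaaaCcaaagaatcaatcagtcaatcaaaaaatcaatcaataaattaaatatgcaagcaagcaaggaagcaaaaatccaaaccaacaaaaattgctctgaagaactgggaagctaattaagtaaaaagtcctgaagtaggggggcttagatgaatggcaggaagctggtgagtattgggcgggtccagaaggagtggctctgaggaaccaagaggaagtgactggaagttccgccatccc
Rex2: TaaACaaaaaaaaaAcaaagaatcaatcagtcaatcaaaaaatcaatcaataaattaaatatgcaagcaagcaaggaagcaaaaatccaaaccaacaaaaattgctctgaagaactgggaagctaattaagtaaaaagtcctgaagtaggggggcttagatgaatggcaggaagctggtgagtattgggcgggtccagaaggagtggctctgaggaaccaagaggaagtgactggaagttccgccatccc
Rsl1, a repressor of male-specific liver genes, and Zfp429 are from the second run on chromosome 13 (plus and minus strand). Compared in the same way, without gaps, they are the closest pair of that run. They differ at 47 positions, again in capitals. Part of these come from a shift near the 5′ end, where the same stretch lies at different positions:
Rsl1: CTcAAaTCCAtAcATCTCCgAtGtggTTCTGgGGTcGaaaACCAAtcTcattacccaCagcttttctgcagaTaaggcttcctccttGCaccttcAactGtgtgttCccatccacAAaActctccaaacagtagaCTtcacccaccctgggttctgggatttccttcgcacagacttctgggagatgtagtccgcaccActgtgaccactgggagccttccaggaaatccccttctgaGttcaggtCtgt
Zfp429: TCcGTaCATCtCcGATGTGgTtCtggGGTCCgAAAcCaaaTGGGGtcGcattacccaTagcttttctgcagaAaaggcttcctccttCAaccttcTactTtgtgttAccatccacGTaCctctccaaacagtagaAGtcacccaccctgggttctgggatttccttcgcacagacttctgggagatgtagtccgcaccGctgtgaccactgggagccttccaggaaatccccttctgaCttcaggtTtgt

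H3K9me3 islands covered 4.07% and 5.54% of the 5 windows in control 1 and control 2, and 4.91% and 3.12% in mutant 1 and mutant 2. The genotypes overlapped, with control 2 highest and mutant 2 lowest. The mean was 4.80% ± 1.04 in controls against 4.02% ± 1.27 in mutants (SD, n = 2 each). Mutants minus controls gave -0.78 percentage points (p = 0.667, exact permutation test, two-sided). With 2 libraries against 2 this test cannot give a p below 0.333, and no measure tested in this way can reach 0.05. Littermate pairs went in opposite directions, by 0.849 points in pair 1 and -2.42 points in pair 2. The difference of means was 0.11 points without mutant 2 and -0.05 points without control 2.

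Over the whole data set these 2 libraries had the most and the fewest islands, though mutant 2 was close to control 1. Control 2 had 5658 islands and mutant 2 had 1964, against 2038 in control 1 and 2905 in mutant 1. The average reads per 200 bp window, worked out from the scores of the smallest islands, were 1.41 and 2.54 in the controls and 1.43 and 2.18 in the mutants. A SICER score sums how improbable the reads of an island's windows are given that average, so it rises with depth and with length. The windows held 4.43% (control 1), 3.26% (control 2), 3.82% (mutant 1) and 3.99% (mutant 2) of all bp that the library covered. Both mutants lay between the controls. The mean share was 3.84% ± 0.823 in controls and 3.90% ± 0.117 in mutants (SD, n = 2 each), with a log2 ratio of 0.02 (p = 1, exact permutation test, two-sided).

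By window, coverage was lowest on chromosome 2 and highest on chromosome 17. On chromosome 2, control 2 had 2 islands that covered 0.211% of the window, and the other 3 libraries had none. On chromosome 4, the controls had 20 and 28 islands over 6.10% and 6.95% of the window, and the mutants 18 and 21 islands over 5.91% and 6.79%. Among the 4 windows with islands in every library, this was the one in which the libraries were closest to each other. On chromosome 7, coverage was 2.20% and 4.19% in the controls (21 and 51 islands), and 2.94% and 1.23% in the mutants (30 and 11 islands). On chromosome 13 it was 6.02% and 7.61% in the controls and 8.22% and 3.96% in the mutants. On chromosome 17 it was 9.84% and 11.7% against 11.4% and 7.71%. In each of the windows on chromosomes 7, 13 and 17, mutant 2 was the lowest library and mutant 1 lay above its littermate control. The exact permutation test (two-sided) gave p = 0.667 for chromosomes 4, 7 and 17 and p = 1 for chromosomes 2 and 13, and the Benjamini-Hochberg adjusted value over the 5 windows was 1 for each.

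**Figure D1:**
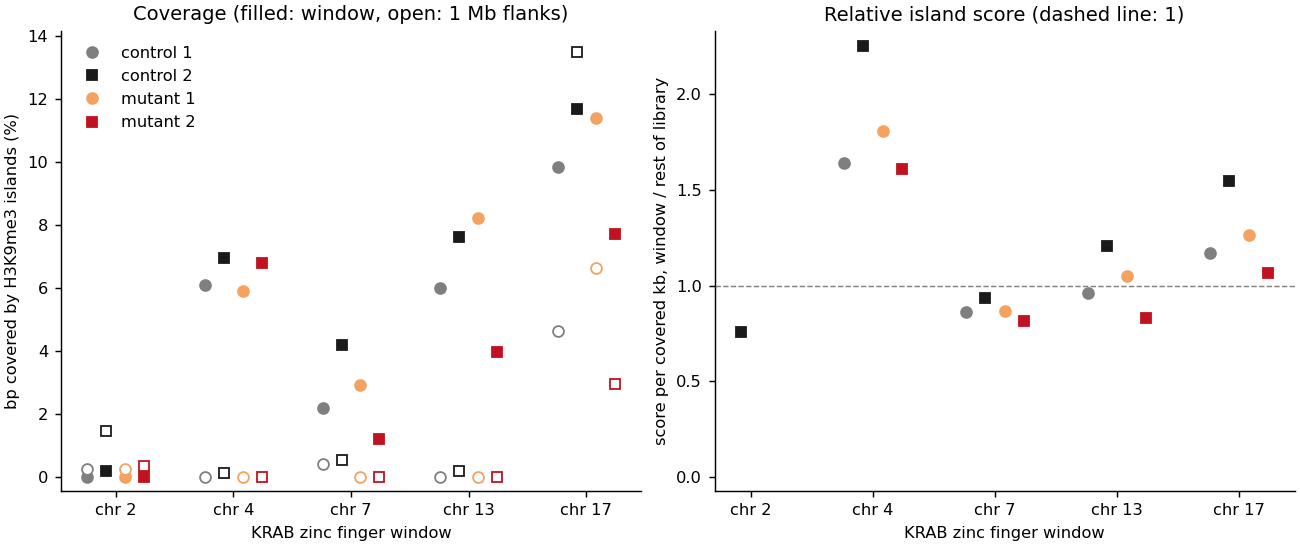
Left, percent of bp covered by H3K9me3 islands in each of the 5 windows (filled) and in the 1 Mb on either side together (open), 1 point per library. Right, score per covered kb of the window divided by that of all islands outside the 5 windows in the same library, where chromosome 4 lies between 1.61 and 2.25 and chromosome 7 below 1 in all 4 libraries.

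Set against its littermate, mutant 2 kept 97.6% of the coverage of control 2 on chromosome 4, but 65.9% on chromosome 17, 52.1% on chromosome 13 and 29.3% on chromosome 7. Over the genome, mutant 2 covered 46.2% of the length that control 2 covered. In pair 1, mutant 1 had 96.9% of the coverage of control 1 on chromosome 4, 116% on chromosome 17, 137% on chromosome 13 and 133% on chromosome 7, and 140% over the genome. Among the windows with islands in every library, coverage thus moved least within either pair on chromosome 4. The other 3 of these windows moved in the same direction as the genome. With 2 pairs, this difference between windows was not tested.

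Island coverage was compared with the 1 Mb on either side of each window, measured in the same library. Coverage of the 5 windows exceeded that of their flanks by 2.84 percentage points ± 0.537 (SD, n = 4 libraries), from 2.37 to 3.53 points, and was higher in 4 of 4 libraries (p = 0.125, exact sign-flip permutation test, two-sided, which with 4 libraries cannot give less). Around chromosome 4 and chromosome 13 the flanks were almost empty. They held 0 islands in control 1, mutant 1 and mutant 2, and 1 island beside each window in control 2, where flank coverage was 0.14% and 0.20%. Flank coverage on chromosome 7 was 0.42% in control 1, 0.56% in control 2 and 0% in both mutants. Each of these 3 windows was thus covered more than its flanks in 4 of 4 libraries.

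The other windows did not stand out from their surroundings in this way. On chromosome 17 islands took up 9.28% and 26.9% of the 1 Mb before the window in the controls and 13.3% and 5.90% in the mutants, and 0% of the 1 Mb after it in all 4. The window lay above its flanks in 3 of 4 libraries and 1.78 points below them in control 2 (p = 0.25, exact sign-flip permutation test, two-sided). The gene run taken for this window starts after the vomeronasal receptor gene Vmn1r237, and which genes lie in its flanks was not looked up. On chromosome 2, the 1 Mb before the window was covered to 0.52% and 2.92% in the controls and to 0.54% and 0.74% in the mutants, and the window was below its flanks in 4 of 4 libraries, by 0.537 points ± 0.477 (SD, n = 4). The low coverage of this window and the repeated promoters of its gene run stand side by side, and the part of unplaced reads in it was not tested.

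Within the windows, islands were gathered in clumps. When member regions less than 200 kb apart were grouped, chromosome 4 and chromosome 7 had 6 clumps each, chromosome 17 had 5, chromosome 13 had 3 and chromosome 2 had 1. Of the 100 kb bins of each window, 11 of 30 held an island of any library on chromosome 4, 24 of 95 on chromosome 7, 15 of 36 on chromosome 13, 17 of 34 on chromosome 17 and 2 of 37 on chromosome 2. Islands in all 4 libraries were found in 9 of these bins on chromosome 4, 7 on chromosome 7, 8 on chromosome 13, 10 on chromosome 17 and 0 on chromosome 2. On chromosome 7 most of the bins with islands were thus not shared by every library. The longest empty stretch was 4.11 Mb on chromosome 7, from 6610601 to 10718000, while on chromosome 13 it was 1.12 Mb, from 65412401 to 66532200. On chromosome 2 it took up 3.37 Mb, from 174633601 to the end of the window.

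**Figure D2:**
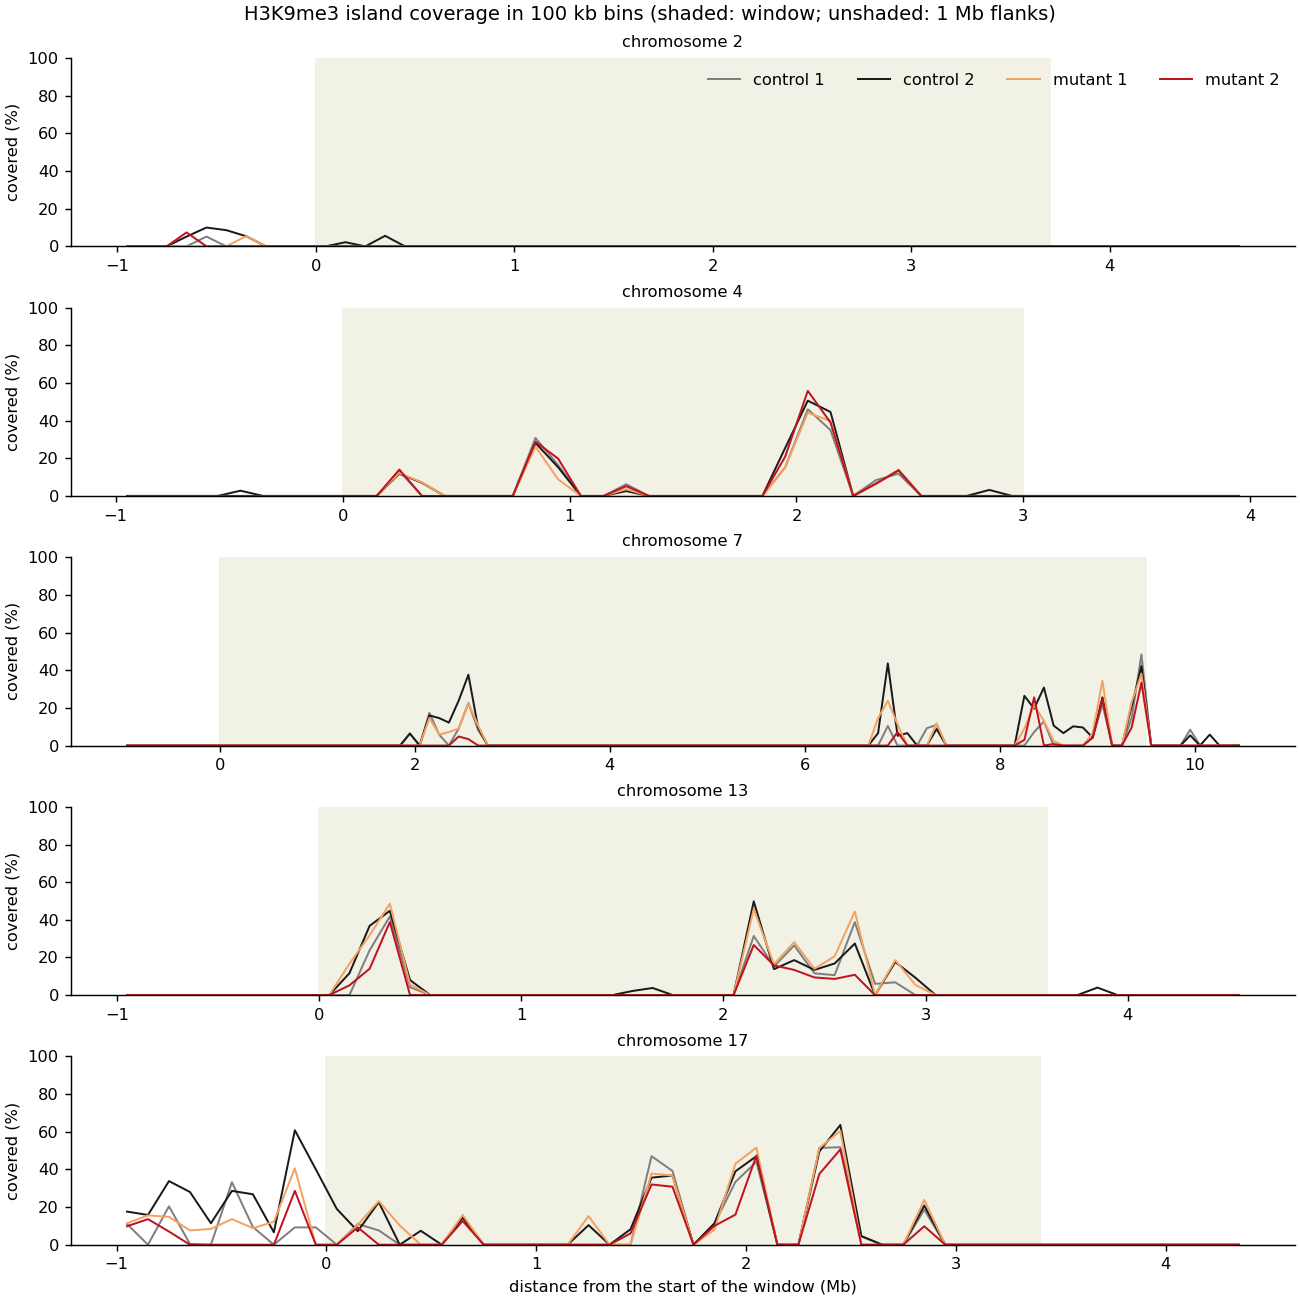
Percent of each 100 kb bin covered by H3K9me3 islands in the 4 libraries, along each window (shaded) and its 1 Mb flanks, with distance in Mb from the start of the window. Of the bins with any island, 9 of 11 on chromosome 4, 7 of 24 on chromosome 7, 8 of 15 on chromosome 13 and 10 of 17 on chromosome 17 hold islands in all 4 libraries. The flanks are near 0 except before the window on chromosome 17 and, at low level, before that on chromosome 2 and after that on chromosome 7.

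The densest bin of each window was dense in every library, except on chromosome 2. On chromosome 17 the bin from 22900001 to 23000000 was covered to 51.8% and 63.6% in the controls and to 60.4% and 50.6% in the mutants. On chromosome 4 the bin from 146800001 to 146900000 was covered to 46.0% and 50.6% in the controls and to 44.2% and 55.8% in the mutants. Mutant 2 was the highest library there and the lowest in the bin on chromosome 17. For the bin on chromosome 13 from 65300001 to 65400000 these values were 41.8%, 44.8%, 48.6% and 38.8% in the same order. For the last bin of the window on chromosome 7, from 13400001 to 13500000, they were 48.4%, 42.2%, 38% and 33.4%. On chromosome 2 the densest bin, from 174600001 to 174700000, had 5.6% in control 2 and no island in the others.

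Clumps differed in their score per covered kb. On chromosome 17 the first clump, from 20555001 to 20912000, had 11 regions, none of them called in all 4 libraries, and scores of 11.6 and 12.7 per covered kb in the controls and 10.5 and 11.2 in the mutants. These were close to the scores of 11.0, 14.0, 11.9 and 10.8 per covered kb in the 1 Mb before the window next to this clump. The clump from 21721201 to 22600000 had 16 regions, 9 of them in all 4 libraries, and scores of 25.1, 40.9, 29.4 and 23.7 per covered kb. On chromosome 7, clumps from 10718001 to 11024800 and from 11246401 to 11343000 likewise had 10 regions with none in all 4 libraries, and at most 15.9 per covered kb in any library. The clump at the end of that window, from 13345601 to 13458400, had 3 of 6 regions in all 4 libraries and 22.2, 40.2, 28.3 and 21.4 per covered kb. Clumps were grouped after the values had been seen, and the number of libraries and the score come from the same islands.

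Islands of the windows were somewhat longer than islands elsewhere. Their median lengths were 9.4 and 6.6 kb for the controls and 10.4 and 9.8 kb for the mutants. Elsewhere the medians were 8.6 and 5.6 kb, and 8.4 and 8.2 kb. The mean log2 ratio was 0.23 ± 0.08 (SD, n = 4) and positive in 4 of 4 libraries (p = 0.125, exact sign-flip permutation test, two-sided). Chromosome 4 alone did not follow, with medians of 6.8 and 5.7 kb in the controls and 6.7 and 7.0 kb in the mutants. Its islands were shorter than those elsewhere in every library but control 2. Against the odorant receptor arrays on chromosome 2 (85 to 90 Mb) and chromosome 9 (38 to 40 Mb), another large tandem gene family, the members were shorter in 4 of 4 libraries, with a mean log2 ratio of -0.24 ± 0.23 (SD, n = 4). Those arrays were covered far more densely, and coverage of the KRAB windows was lower by 45.0 points on average (SD 7.79, n = 4), in 4 of 4 libraries. The score per covered kb ran the other way and was higher in the KRAB windows in 4 of 4 libraries, by 0.40 on the log2 scale ± 0.16 (SD, n = 4). This did not hold for chromosome 7 alone, where the score of 18.2, 23.3 and 19.3 per covered kb in control 1, control 2 and mutant 1 was below the 18.9, 26.7 and 22.6 of the arrays. Each of these 3 comparisons had p = 0.125 (exact sign-flip permutation test, two-sided).

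Scores per covered kb in the 5 windows, set over those of all other islands of the same library, gave a relative score of 1.13 to 1.39. It was 1.27 ± 0.174 in controls and 1.16 ± 0.0455 in mutants (SD, n = 2 each), with a log2 ratio of -0.13 (p = 0.667, exact permutation test, two-sided). Within pairs it was 0.06 and -0.30, and without control 2 the log2 ratio turned to 0.02. Chromosome 4 had the highest relative score in every library, with 1.64 and 2.25 in the controls and 1.81 and 1.61 in the mutants. Chromosome 17 followed with 1.17, 1.54, 1.26 and 1.06. Values on chromosome 13 lay on both sides of 1, from 0.832 in mutant 2 to 1.21 in control 2, and those on chromosome 7 between 0.818 and 0.933. The score per covered kb on chromosome 4 exceeded that on chromosomes 7, 13 and 17 together by 0.76 on the log2 scale ± 0.08 (SD, n = 4), in 4 of 4 libraries (p = 0.125, exact sign-flip permutation test, two-sided). That comparison was chosen after the values had been seen.

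Of the 146 merged regions, 50 were called in all 4 libraries (34.2%, against 17.3% of the 5840 regions of the genome) and 49 in a single library (33.6%, against 52.0%). Control 2 was that library for 39 of the 49, and for 2466 of 3039 such regions in the genome. By window, 16 of 23 regions were called in all 4 libraries on chromosome 4, 12 of 31 on chromosome 13, 15 of 38 on chromosome 17, 7 of 52 on chromosome 7 and 0 of 2 on chromosome 2. The share called in every library was thus highest on chromosome 4. The merged regions had a median length of 8.3 kb, against 7.0 kb over the genome.

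In each window one region was taken by the lowest of its 4 scores, a choice that picks regions called in all 4 libraries where there are any. On chromosome 4 this was the region from 145656601 to 145683000 (26.4 kb), with scores of 1307 and 2277 in the controls and 1412 and 1287 in the mutants. On chromosome 17 it was the region from 22903001 to 22937400 (34.4 kb), which scored 969 and 1858, and 1219 and 777. Control 2 was highest and mutant 2 lowest in both. On chromosome 7 the region from 13419401 to 13443400 (24.0 kb) scored 643, 1094, 753 and 525. On chromosome 13 the region from 67126601 to 67154200 (27.6 kb) scored 626, 1013, 832 and 373, and it was also the longest of its window. Islands covered 26.6 and 25.2 kb of it in the controls, 26.4 kb in mutant 1 and 14.2 kb in mutant 2.

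Other regions were named for their length. The longest in any window lay on chromosome 17 from 22059601 to 22098800 (39.2 kb), with scores of 903 and 1440 in the controls and 1173 and 758 in the mutants. The longest on chromosome 4, from 146888001 to 146916200 (28.2 kb), scored 1024, 1823, 1227 and 1137. Both were called in every library. The longest on chromosome 7, from 10840601 to 10876400 (35.8 kb), scored 447 over 32.2 kb in control 2 and 91.9 over 9.4 kb in mutant 1, and had no island in control 1 or mutant 2. On chromosome 2 the longest, from 174628001 to 174633600 (5.6 kb), scored 72.0 in control 2 alone.

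Scores of the regions called in all 4 libraries were then set side by side within pairs, which leaves out the question of whether an island was called. In pair 1 the score was higher in the mutant in 45 of the 50 member regions, with a median log2 ratio of 0.33, as in the rest of the genome (0.33 over 958 regions). In pair 2 it was higher in the mutant in 1 of 50, with a median of -0.97, against -0.82 in the rest of the genome. By window, the median in pair 2 was -0.64 on chromosome 4, -1.06 on chromosome 7, -1.17 on chromosome 13 and -1.14 on chromosome 17. In pair 1 it was 0.15, 0.46, 0.48 and 0.33. Scores on chromosome 4 were therefore lower in mutant 2 than in control 2, while its coverage was 97.6% of that of control 2, and in both pairs the median of chromosome 4 lay nearest to 0 among the 4 windows. Scores here were not scaled between libraries, and the part of depth in these ratios was not tested.

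**Figure D3:**
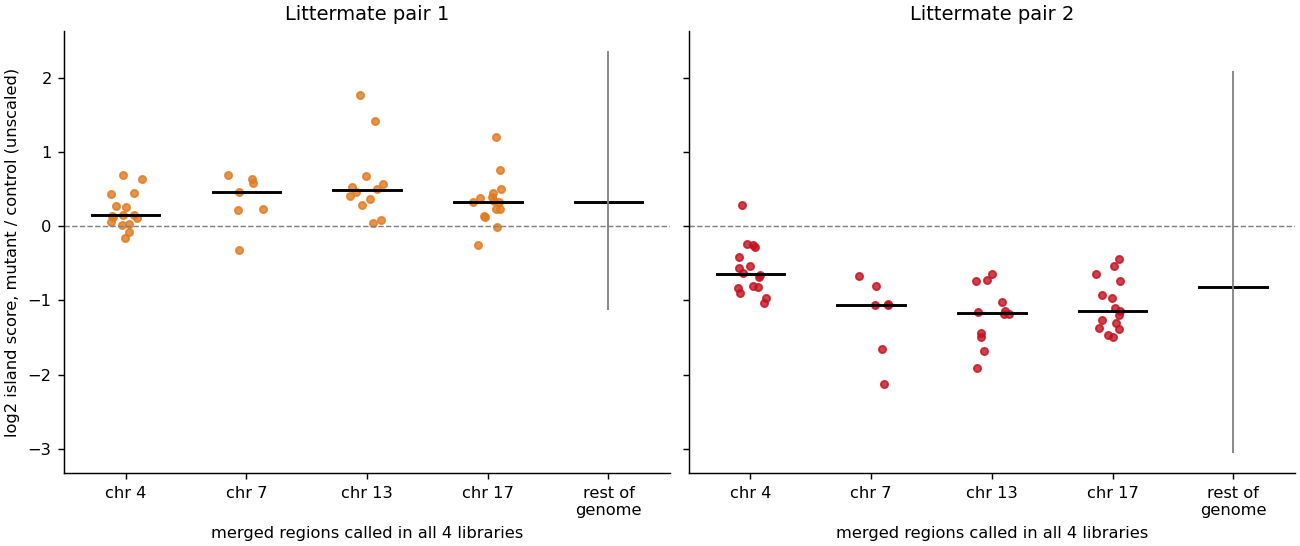
Log2 ratio of the summed island score, mutant over its littermate control, for the 16, 7, 12 and 15 merged regions on chromosomes 4, 7, 13 and 17 that were called in all 4 libraries, with black bars at the median. For the rest of the genome (958 regions) the bar is the median and the grey line the full range. Points lie mostly above 0 in pair 1 and below 0 in pair 2.

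Regions of control 2 without an island in mutant 2 were mostly of low score. Control 2 had 132 member regions, of which 59 also held an island in mutant 2 (44.7%, against 29.3% of its 5173 regions in the genome). The median score in control 2 was 475 for the 59 and 90.3 for the other 73, where the genome had 191 and 84.7. The share was 82.6% on chromosome 4 (19 of 23), 48.5% on chromosome 17 (16 of 33), 48.1% on chromosome 13 (13 of 27) and 23.4% on chromosome 7 (11 of 47). Of the 60 member regions of mutant 2, 59 held an island in control 2 (98.3%, against 87.4% of 1734 regions in the genome). In pair 1, 64 of the 73 member regions of control 1 were also in mutant 1 (87.7%, against 81.2% in the genome), and 64 of the 94 of mutant 1 in control 1 (68.1%, against 54.9%). The median score in control 1 was 277 for the 64 and 85.7 for the other 9, where the genome had 139 and 88.2. In both pairs, members seen in the control alone were thus of low score, as were such regions over the genome.

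Genotypes were compared region by region with limma on log2(score + 64.7), where 64.7 is the smallest island score in any library, over all 2801 merged regions called in at least 2 libraries. This took in 97 of the 146 member regions, and the other 49 were called in 1 library only. An adjusted p under 0.05 (limma, Benjamini-Hochberg over all regions) was reached by 0 of the 97, where the background was 0.0357% (1 of 2801 regions). An unadjusted p under 0.05 was found for 4 of the 97 (4.12%), against a background of 5.82% in either direction. All 4 were lower in mutants, where the background was 3.93% for lower and 1.89% for higher. The median log2 fold change was -0.04 over the members and 0.08 over all regions, and 50 of the 97 members were lower in mutants. With the littermate pair as replicate block, 0 member regions passed again and 3 had an unadjusted p under 0.05. The median standard error of a member's log2 fold change was 0.47.

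The member region with the smallest unadjusted p lay on chromosome 7 from 6510201 to 6537200. It scored 280 in control 1, 405 in control 2 and 128 in mutant 1, and mutant 2 had no island in it. Both mutants were below both controls. Its log2 fold change was -1.66 (standard error 0.50, unadjusted p = 0.0126, adjusted p = 0.814, limma). The next were the region on chromosome 13 from 65250001 to 65257200, with scores of 85.1 and 121 in control 1 and control 2, and that on chromosome 7 from 6253601 to 6259200, with 82.3 and 106. Neither had an island in a mutant. Their adjusted p was 0.814 and 0.832 (limma). The last of the 4, on chromosome 7 from 5916201 to 5923000 with 97.2 and 97.9 in controls and no island in mutants, falls outside the rule for named regions and was added after its value was seen. The regions without an island in mutants scored from 82.3 to 121 in the controls. The smallest score of any island was 64.7 and the median over the islands of all libraries was 108. The part of read number in the missing calls was not tested.

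Of the 146 regions of the windows, 4 were called in both controls but in no mutant (background 3.2%, 187 of 5840). They were the 3 just given without an island in mutants and 1 on chromosome 17, from 23025801 to 23030200, with scores of 84.6 and 67.0 in control 1 and control 2. The opposite, both mutants but no control, was seen for 0 of 146 (background 0.565%). With a pseudocount of 1 in place of 64.7, the 3 regions on chromosomes 7 and 13 reached an adjusted p of 0.0441 (limma), where the background rose to 7.1% of 2801 regions. That scale sets a missing island far below the lowest called one.

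H3K4me3, a mark of active promoters, was available as MACS peaks for control 1 and mutant 1, 1 library per genotype, and no test between them was possible. The windows held 153 peaks in control 1 and 159 in mutant 1, or 6.59 and 6.85 per Mb, against 8.7 and 10.6 per Mb in the flanks. By window, control 1 and mutant 1 had 25 and 30 peaks on chromosome 4, 58 and 58 on chromosome 7, 30 and 31 on chromosome 13 and 39 and 38 on chromosome 17. The window on chromosome 2 again stood apart, with 1 peak and 2 peaks in 3.7 Mb, while its flanks had 11 and 13 in 2 Mb. The window with the fewest H3K9me3 islands thus also had the fewest peaks.

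Peaks near an H3K9me3 island made up a larger share in the windows than over the genome. Of the 153 peaks of control 1, 55 (35.9%) were at most 25 kb from an H3K9me3 island of the same mouse, against 421 of 15584 (2.70%) in the genome. In mutant 1 it was 59 of 159 (37.1%), against 621 of 17897 (3.47%). Islands also covered more of the windows than of their flanks, and the share of window bp within 25 kb of an island was not measured. The part of island density in this contrast was not tested. The windows differed in how near their peaks lay to islands. The median distance from a peak to the nearest island was 2.37 and 1.16 kb on chromosome 4 in control 1 and mutant 1, 12.1 and 7.63 kb on chromosome 13, 344 and 85.2 kb on chromosome 17 and 763 and 1175 kb on chromosome 7. Over the genome it was 1478 and 927 kb. Peaks on chromosome 7 were thus mostly far from islands, with 17.2% and 15.5% of them at most 25 kb away. On chromosome 13 the clump from 67110001 to 67929200 held 24 of the 30 peaks of control 1 and 25 of the 31 of mutant 1, among islands that covered 17.9% and 23.6% of it. Few peaks of chromosome 13 overlapped an island, 0 of 30 peaks in control 1 (exact binomial 95% interval 0 to 11.6%) and 2 of 31 in mutant 1 (6.45%, 0.791 to 21.4%). The intervals cover counting error only.

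Chromosome 4 differed from the other windows in this respect. There 12 of 25 peaks in control 1 (48.0%, exact binomial 95% interval 27.8 to 68.7%) and 14 of 30 in mutant 1 (46.7%, 28.3 to 65.7%) overlapped an H3K9me3 island of the same mouse. In the other 4 windows together it was 2 of 128 (1.56%, 0.190 to 5.53%) and 5 of 129 (3.88%, 1.27 to 8.81%), and over the genome 0.776% and 1.06%. The peaks over islands on chromosome 4 fell on 7 islands in control 1 and 5 in mutant 1, so they are not independent. The intervals cover counting error within 1 library only, and the difference between windows was not tested. The overlapping peaks on chromosome 4 were weak, with a median MACS score of 77.8 in control 1 and 80.2 in mutant 1, against 500 and 355 for the peaks of that window outside islands. Peaks over islands elsewhere in the windows numbered 2 and 5, with median scores of 1089 and 860, and the weakest of them scored 56.9. In the odorant receptor arrays, mutant 1 had 6 of 7 peaks over an island, with a median score of 55.8, and control 1 had 0 of 2. Weak peaks over islands were thus not confined to chromosome 4 in mutant 1. On chromosome 4, 7 of 20 islands in control 1 and 5 of 18 in mutant 1 held a peak, where 3.74% and 4.49% of islands outside the windows did. H3K9me3 islands and H3K4me3 peaks were thus both called at these regions of chromosome 4, without an input library to set them against. The part of repeated sequence in this was not tested.

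**Figure D4:**
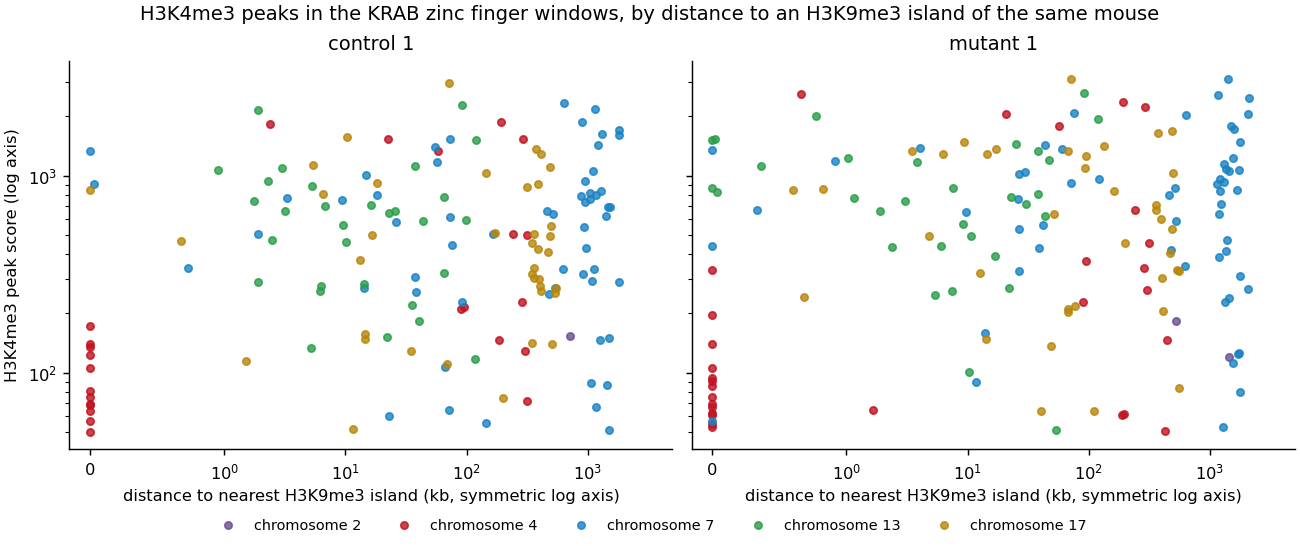
Each point is an H3K4me3 peak in a KRAB zinc finger window, by distance to the nearest H3K9me3 island of the same mouse (kb, symmetric log axis, 0 for overlap) and MACS score (log axis). Peaks at 0 are mostly from chromosome 4 and of low score, while peaks of chromosome 13 lie mostly at less than 100 kb from an island.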

How the data were processed

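H3K9me3 was measured in 4 libraries, 2 per genotype, and H3K4me3 in 2. Per the study's methods, the authors mapped single-end reads of 50 bp to mm9 with Bowtie, keeping unique alignments with at most 2 mismatches, and called H3K9me3 islands with SICER (E-value 0.01) and H3K4me3 peaks with MACS, in each library separately. The deposited values are island and peak scores, not counts, and the authors did not scale the scores between libraries. A start on every multiple of 200 bp gives the SICER window. No input library was used here.

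Islands were joined and measured with Python 3.11.15, numpy 2.4.6, pandas 2.3.3 and scipy 1.17.1, drawn with matplotlib 3.10.9, and compared with limma 3.58.1 in R 4.3.3 after each library was centred on the median of the regions that all 4 share. Fold changes on log2(score + 64.7) understate changes of low scores. Named regions are, per window, the one with the highest lowest-of-4 score, the longest, and the densest 100 kb bin, then any member past an adjusted p of 0.05 and the 3 members with the smallest unadjusted p. The windows, lists and comparisons were chosen with earlier results of these data known.

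Same-numbered mice are littermates, per the study's methods, with 1 treatment group per pair in the labels. Their deviations from the group means had a correlation of -0.02 across 2801 regions, which are not independent. Average reads per window came from islands of 2 windows, where all 5, 10, 11 and 10 such islands of control 1, control 2, mutant 1 and mutant 2 gave whole read numbers within 1e-06 at one value. Interval code and limma step were tested on simulated data. No mm9 genome or annotation was used, so no sequence was read from the islands. Alternatives were stricter or equal numbers of islands, other overlap, flank and chromosome choices, other pseudocounts, scaling and joining, the replicate block, and leaving out each library.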

Additional observations from a re-analysis of the deposited data

How the results depend on the processing

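Alternatives gave 104 values, 2 of which were added after the data had been seen, and 87 kept their direction and their side of the threshold, which the exact tests over 4 libraries could not pass. Coverage of the windows above their flanks, below the odorant receptor arrays, and the greater island length kept their direction in all. The genotype difference of the share of covered bp turned to a log2 ratio of -0.037 with islands of at least the pooled median score and -0.13 with equal numbers of islands. Coverage by genotype turned to 0.197 points on chromosome 13 with the stricter islands and to 0.217 points on chromosome 4 with equal numbers. On chromosome 2 it became 0 in both, since no island was left. With a pseudocount of 1, 3 member regions passed the threshold. In none of these was the cause tested.

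Leaving out each library in turn, the coverage difference lay between -1.68 and 0.112 points. By window it lay between -0.211 and 0 points (chromosome 2), -0.613 and 0.26 (chromosome 4), -2.10 and -0.12 (chromosome 7), -2.85 and 1.41 (chromosome 13), and -3.06 and 0.641 (chromosome 17). On the log2 scale the share lay between -0.181 and 0.259 and the relative score between -0.259 and 0.022. With the replicate block, the log2 ratio of the share was 0.04 and that of the relative score -0.12, and it changed no call. Control 2 had the most reads per window and most of the regions called in a single library, while mutant 2 had the fewest islands at the second highest depth. The part of depth in the calls was not tested.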
